A study of Oryza sativa Indica Group with 6 samples.

Results

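Transcript signals of the rice line Ossl were compared with those of the line Osoc, both T-DNA insertional mutant lines of Basmati, a rice group known for its scented grain. A T-DNA line carries a stretch of foreign DNA placed in its genome by Agrobacterium, and the insertion can interrupt a gene or change the genes near it. The comparison took the 2 Ossl and the 2 Osoc arrays, of 6 arrays in all, and every probe set that is not a control of the manufacturer, which left 57258 of 57381. A probe set is a group of short probes that read 1 transcript. Total RNA came from seedlings 15 days after germination, grown under optimal conditions, and was hybridized to the Affymetrix Rice Genome array. The remaining 2 arrays belong to OsPE, also an insertion line, of the same age and growth conditions, and are given beside the comparison as levels. The organism label is Oryza sativa Indica Group. No untransformed line was used here, so a difference shows which line is higher and not which one departed from wild type. The sources used here do not state what the line names stand for, where the insertions lie or how many plants made up a sample. The labels call the arrays of a line biological replications, and the p-values measure the spread between those arrays.

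Rice seedlings of this age are green, photosynthesizing plants that take up their own minerals. Jasmonate is a hormone made from membrane lipids whose repressors, the JAZ proteins, are destroyed when it accumulates, and rice also makes diterpenoid phytoalexins, antimicrobial compounds such as the momilactones and phytocassanes. Rice takes up iron both as free ions and bound to mugineic acids, which are built from nicotianamine, and stores excess iron in the vacuole.

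The signals of 39629 probe sets were high enough to be tested, which took a signal over the 40th percentile of the array in 2 or more of the 6 arrays. Median signals of the arrays lay between 37.3 and 42.8. Log2 signals of the 2 arrays of a line correlated at 0.972 to 0.976 across probe sets, and those of an Ossl and an Osoc array at 0.962 to 0.965, where the points share array chemistry and are not independent. The labelled tissue was checked against its markers: the 12 probe sets of 5 green leaf genes summed to 266500 and 298500 on the Ossl arrays and to 266700 and 274700 on the Osoc arrays. Of these 12, 1 was higher and 3 were lower in Ossl. Of 6 root marker probe sets 5 were tested and 0 passed by limma's test, 1 having an unadjusted p below 0.05, with summed signals of 1586 and 1699 in Ossl and 1732 and 1777 in Osoc. Almost all of that sum came from Lsi1, the silicon uptake channel of roots, while Lsi2, the silicon exporter, lay near the floor on every array. Of 21 grain marker probe sets 14 were tested and 1 passed, that of the globulin gene GLB, and the sums were 4932 and 4946 in Ossl against 4268 and 4332 in Osoc. Markers of dividing tissue lay near the floor, with OSH1 at or under 18.4 on every array. The spiked poly-A controls, bacterial transcripts added to check labelling, were lower on the Ossl arrays, with mean log2 differences, Ossl minus Osoc, of -1.30 for their 5' probe sets and -0.39 for their 3' probe sets. Among the array's own rice control genes, the log2 gap between 3' and 5' probe sets of GAPDH was 2.16 and 2.26 in Ossl and 1.48 and 1.42 in Osoc, and that of actin 3.97 and 3.54 against 3.31 and 3.08, without overlap. The gaps of cyclophilin, ubiquitin and EF1 overlapped between the lines. A wider gap is a sign of RNA that is less whole or copied less far from its 3' end. The part of these shifts in the differences below was not tested. In whole seedlings, fewer cells of a type and less RNA per cell cannot be told apart.

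Ossl and Osoc differed in 4441 of the 39629 tested probe sets (11.2%), with 2351 higher in Ossl (5.93%) and 2090 lower (5.27%), at a Benjamini-Hochberg adjusted p below 0.05 by limma's moderated test on log2(signal + 16). At least 2-fold differences were found for 556 probe sets higher in Ossl (1.4%) and for 277 lower (0.699%). Both Ossl arrays lay on the same side of both Osoc arrays for 19780 probe sets (49.9%). The median log2 difference of all tested probe sets was 0.004. Which direction held more calls turned with the scaling: after median centring of the arrays 1700 probe sets were higher and 1752 lower, with 49.2% of calls higher in place of 52.9%. The share that passed rose with the signal, from 0.514% under a signal of 64, as the mean of the 6 arrays, to 17.8% between 256 and 1024 and 31.7% over 4096. The median standard error of the log2 difference fell over the same brackets from 0.573 to 0.139 and 0.061, and the median size of a passing difference from 1.82 to 0.66 and 0.31. A dim gene therefore had to differ much more than a bright one to pass. The count rested on modelling the variance as a trend of the signal: without that trend 402 probe sets passed, 338 of them also among the 4441. Leaving out Osoc replicate 1 gave 2607, and leaving out Osoc replicate 2 gave 2367.

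**Figure D1:**
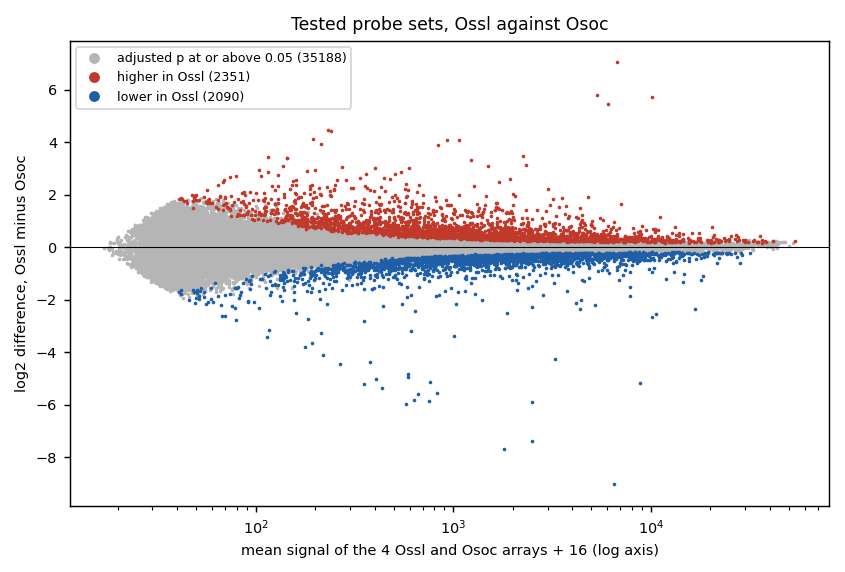
Each point is 1 of the 39629 tested probe sets, with the mean signal of the 4 Ossl and Osoc arrays plus 16 on a logarithmic x axis and the log2 difference, Ossl minus Osoc, on the y axis. The 2351 red points are higher in Ossl, the 2090 blue points are lower, and the grey points did not pass; the band of grey points narrows toward high signals.

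The largest difference upward was that of the gene known here only as LOC4345926. Its signals were 12608 and 14204 on the Ossl arrays, 106.9 and 65.0 on the Osoc arrays and 87.3 and 55.9 on the OsPE arrays. The gene was thus bright in Ossl and dim in both other lines, with a log2 difference of 7.07 ± 0.207 (standard error; limma adjusted p = 9.68e-10). The next probe set by size, which matched no gene symbol, read 10835 and 10037 in Ossl, 151.9 and 193.3 in Osoc and 81.7 and 86.6 in OsPE. Downward, LOC4324944 read 8.8 and 8.4 in Ossl and 12897 and 12995 in Osoc, while OsPE read 6.8 and 26.7. Here Osoc alone was bright. LOC4340728 had 27.8 and 4.1 in Ossl, 4962 and 4952 in Osoc and 4384 and 4307 in OsPE, so that Ossl alone was near the floor. No fold is given for these 2 because the Ossl mean lies under the 40th percentile of its arrays.

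A stricter all-or-none pattern, defined next, was met by few probe sets. Of those described in the paragraph before, only LOC4324944 met it. In 12 probe sets both Ossl arrays lay at or under the 40th percentile of their array (a signal of 22.5 to 26 over the 6 arrays) while both Osoc arrays reached 256. In 4 probe sets the pattern ran the other way. The 12 fall under 8 identifier stems and the 4 under 2, so that some of them read related sequences. In 5 of the 12 OsPE was also at or under the 40th percentile, in 5 it was at 256 or more, and in the 4 it was at or under the percentile as well. Of the 4, 3 probe sets share a stem and read between 308.4 and 459.6 in Ossl and at most 8.5 in Osoc. A group of 3 among the 12, also of 1 stem, read at most 18.7 in Ossl and between 456.4 and 1264 in Osoc. An array does not separate a transcript that is missing from one whose sequence the probes do not bind, and this was not tested here.

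**Figure D2:**
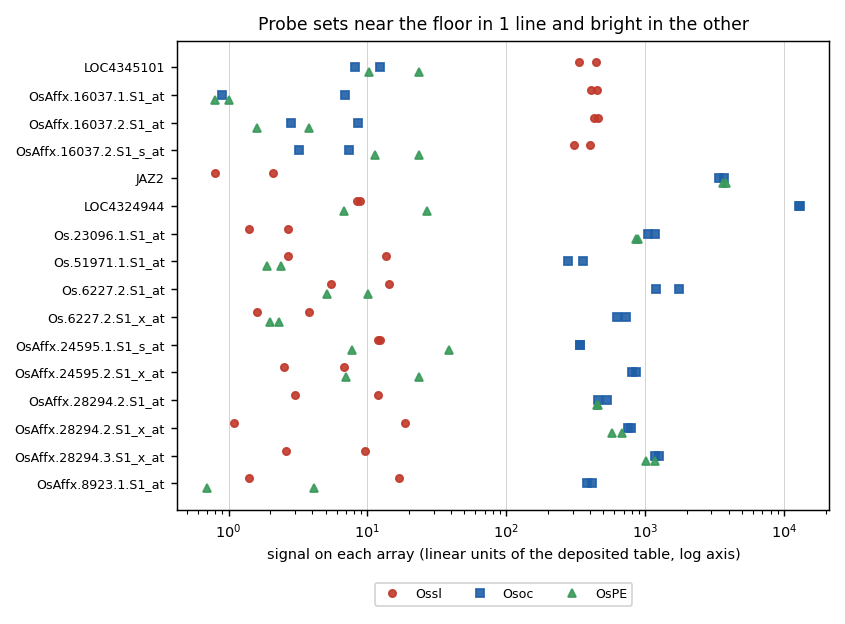
Signals on each array, on a logarithmic axis, of the 16 probe sets near the floor in 1 line and at 256 or more in the other; red circles are Ossl, blue squares Osoc and green triangles OsPE, with 2 arrays per line. In the top 4 Ossl alone is bright, and in the 12 below Ossl lies at or under the 40th percentile, with OsPE near the floor or near Osoc.

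Among genes with a name, BURP16 was the one most elevated in Ossl. It belongs to the BURP domain family, plant proteins of which many are secreted to the cell wall. Its signals were 11519 and 12077 in Ossl, 246.7 and 251.2 in Osoc and 1249 and 1221 in OsPE. The Ossl arrays lay far above the others, with a 44.6-fold difference (log2 5.48 ± 0.078, adjusted p = 1.21e-12). Of the 5 BURP genes tested 3 were higher in Ossl, the others being BURP3 (1.63-fold) and BURP17 (1.3-fold), and 0 were lower at the probe set with the highest mean signal. A dimmer BURP2 probe set, however, was lower (log2 -0.47). Without Osoc replicate 1 or 2 the count of higher BURP genes was 2.

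**Figure D3:**
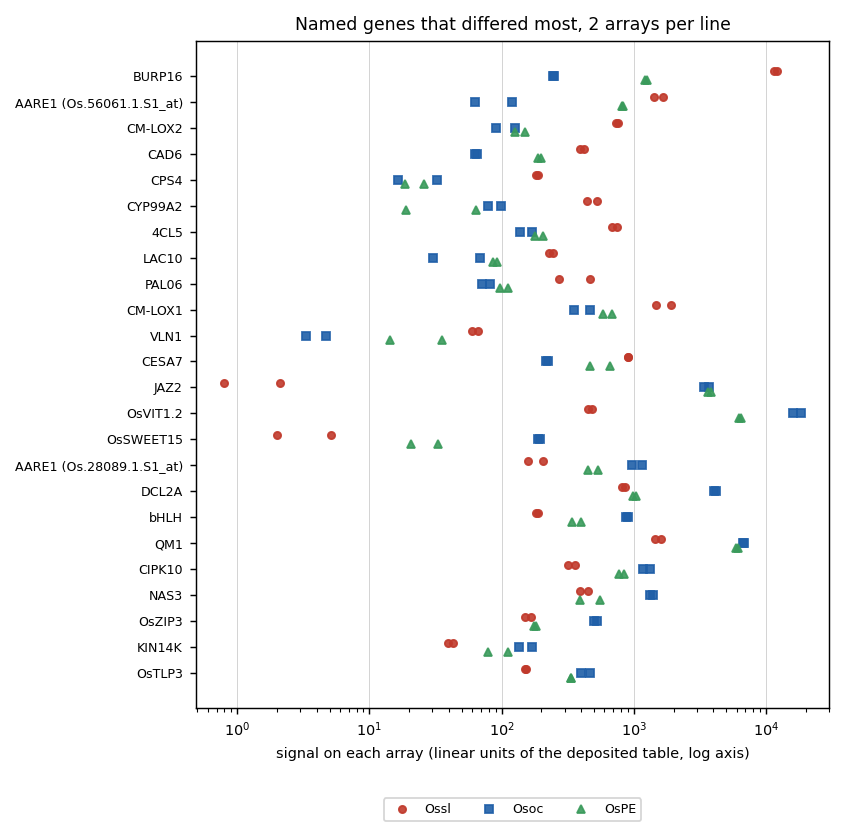
Signal on each of the 2 arrays per line, on a logarithmic axis, for the 12 named genes with the largest difference upward (top, BURP16 to CESA7) and the 12 downward (bottom, JAZ2 to OsTLP3); red circles are Ossl, blue squares Osoc and green triangles OsPE. Ossl and Osoc do not overlap in any of the 24. OsPE lies between them in 10 of the 12 upper and 10 of the 12 lower genes. Choosing genes for a wide gap between Ossl and Osoc favours that position. AARE1 stands in both groups, through different probe sets.

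For the 12 named genes with the largest difference in each direction, Ossl and Osoc do not overlap because the rule required it. AARE1 is counted in both directions, through different probe sets. The position of OsPE was not part of that rule, but its arrays entered the signal filter and the shared variance. Choosing genes for a wide gap between Ossl and Osoc also favours an OsPE level between them. The OsPE counts that follow are therefore descriptive, and whether they exceed what this choice gives was not tested. For the 12 higher genes both OsPE arrays lay below both Ossl arrays in 12, and lay between the lines in 10, the exceptions being CPS4 and CYP99A2, where an OsPE array reached the Osoc range or lay under it. For the 12 lower genes OsPE lay between the lines in 10 and above both Ossl arrays in 11, the exceptions being JAZ2 and NAS3.

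The gene AARE1, an acylamino-acid-releasing enzyme that trims blocked amino acids from peptides, was read in opposite directions by its probe sets. One gave 1428 and 1660 in Ossl, 119.6 and 62.8 in Osoc and 833.8 and 814.5 in OsPE. Another gave 1711 and 1768 in Ossl, 6844 and 7372 in Osoc and 3242 and 3559 in OsPE. Ossl was thus 15.1-fold higher on the first and lower on the second (log2 -2.02 ± 0.072, adjusted p = 4.97e-09), as on the third (log2 -2.45). AARE1 therefore has no single direction here. Of 2871 genes with at least 2 tested probe sets, 780 had at least 1 that passed. In 115 of these all passed in 1 direction, in 656 only some passed, and in 9 they passed in both directions, AARE1 being the only one with a name. The counts of gene lists below rest on the probe set with the highest mean signal of each gene.

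On that basis 2809 of 16460 genes with a single symbol differed (17.1%; 10.1% higher and 6.99% lower in Ossl), and among the 2300 with a name 532 differed (23.1%), 337 higher in Ossl (14.7%) and 195 lower (8.48%). The median log2 difference of the named genes was 0.055. The list counts that follow are read against these shares. Both directions together, under 23.1% differed in the lists of photosystems, Rubisco and the Calvin cycle, gibberellin, auxin, ethylene, brassinosteroid and phosphate. The same holds for potassium and sodium, aquaporins, sucrose and starch, PP2C phosphatases, expansins, small RNA pathways and cytochrome P450s. It also holds for bZIP factors, MADS box and homeobox factors, immune receptors and signalling, and cell cycle genes. The lists of ubiquitin, proteasome and autophagy and of inositol phosphate enzymes lay under that share too. Without the variance trend no list kept more than 3 genes in either direction. Over all 50 lists, 297 of 1147 genes differed, 203 higher and 94 lower (25.9%), which is close to the share of all named genes. The total was 184 and 174 with Osoc replicates 1 and 2 left out in turn, and 26 without the variance trend. Where a list has 1 or 2 genes past the threshold, a single gene more or fewer already moves its count by 1.5 times or more. Counts of 0 below are by limma's test after adjustment; at an unadjusted p below 0.05, for instance, 2 of the 12 Rubisco, Calvin cycle and photorespiration genes were higher and 1 lower.

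**Figure D4:**
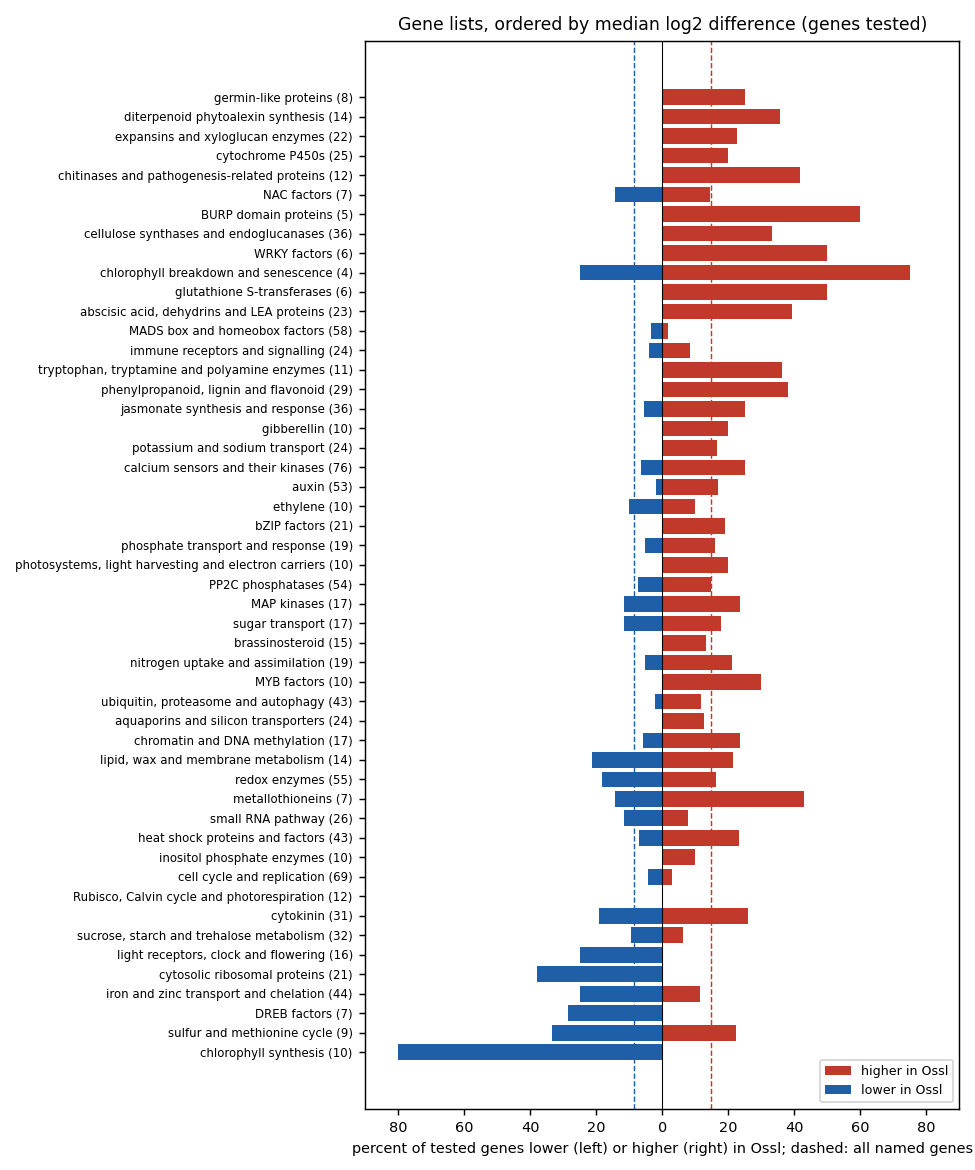
Percent of the tested genes of each of the 50 lists that were higher (red, right) or lower (blue, left) in Ossl, ordered by the median log2 difference of the list, with the number of genes tested in brackets. Dashed lines mark the shares of all named genes, 14.7% higher and 8.48% lower; the chlorophyll synthesis list, at the bottom, has 8 of 10 genes lower.

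Chlorophyll synthesis genes were lower in Ossl. Of 10 tested 8 were lower, 0 higher and 2 did not pass, and the median log2 difference was -0.51. Without the variance trend 1 of the 10 passed as lower. PORA, a protochlorophyllide reductase, read 982.7 and 963.4 in Ossl, 2074 and 2043 in Osoc and 863.8 and 960.7 in OsPE. Osoc stood above the other lines for this gene (log2 -1.07 ± 0.088, adjusted p = 8.36e-06). GSA, the aminotransferase that makes the first committed precursor of tetrapyrroles, read 6811 and 6604 in Ossl, 10206 and 10162 in Osoc and 6910 and 6830 in OsPE, with the same order of lines. UPD2, a uroporphyrinogen decarboxylase, was 1.53-fold lower in Ossl. The count was between 6 and 7 with any 1 array left out.

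Among the enzymes that take chlorophyll apart, SGR, the stay-green protein that starts its breakdown by removing magnesium, was higher in Ossl. It read 1908 and 1426 in Ossl, 579.3 and 674.8 in Osoc and 706.9 and 702.3 in OsPE (2.6-fold, adjusted p = 3.16e-05). Of the 4 breakdown genes tested, OsRCCR1, a red chlorophyll catabolite reductase, and NOL, a chlorophyll b reductase, were also higher, at 1.32-fold and 1.19-fold, and NYC1, the other chlorophyll b reductase, was 1.26-fold lower. The count of higher genes was 1 without either Osoc array or either Ossl array, and NYC1 did not count as lower without Osoc replicate 2 or Ossl replicate 2. Of 10 genes of photosystems and light harvesting 2 were higher by small amounts, CAB2R at 1.18-fold and 1 of 2 genes listed as FNR, a ferredoxin reductase, at 1.22-fold, and 0 were lower. That count was 0 without Osoc replicate 1, without Osoc replicate 2 or without Ossl replicate 2, and 4 without Ossl replicate 1. Of 12 genes of Rubisco, the Calvin cycle and photorespiration 0 passed in either direction, with a median log2 difference of -0.03; 3 dimmer probe sets of OsrcaA1, the Rubisco activase, were lower (log2 -0.22, -0.23 and -0.45).

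Iron and zinc genes differed in both directions: of 44 tested 11 were lower in Ossl, 5 higher and 28 did not pass (median log2 -0.13). OsVIT1.2, a transporter that moves iron and zinc into the vacuole, read 479.6 and 449.2 in Ossl, 18285 and 15970 in Osoc and 6270 and 6495 in OsPE. The lines followed the order Ossl, OsPE, Osoc without overlap, and Osoc was 35.6-fold above Ossl (log2 -5.16 ± 0.076, adjusted p = 1.21e-12). NAS3, a nicotianamine synthase, read 388.8 and 450.6 in Ossl, 1324 and 1391 in Osoc and 556.1 and 389.2 in OsPE, so Ossl and OsPE overlapped below Osoc (3.16-fold lower in Ossl). NAAT1, the aminotransferase that leads from nicotianamine to mugineic acids, was 2.38-fold lower, with 1143 and 1173 in Ossl, 2783 and 2784 in Osoc and 976.2 and 1052 in OsPE. OsZIP3, a zinc transporter, was 3.04-fold lower. Of the 5 higher genes, those with the lowest adjusted p by limma's test included osysl12 and OsYSL13, of the metal-nicotianamine transporter family. These were 1.59-fold and 1.48-fold higher, and NRAMP4, a metal transporter family member, was 1.33-fold higher. A low adjusted p favours bright genes with small differences. The largest upward log2 difference in the list, past the threshold or not, was 1.58. The count of lower genes was 7 without Osoc replicate 1, 5 without Osoc replicate 2 and 6 without Ossl replicate 1, and that of higher genes was 3 without either Osoc array or Ossl replicate 2.

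Metallothioneins, small cysteine-rich proteins that bind metals, had 3 of 7 genes higher and 1 lower. MT1B read 1607 and 1470 in Ossl, 656.3 and 638.3 in Osoc and 714.4 and 759.3 in OsPE, which set Ossl above the others (2.34-fold). MT4A was 1.43-fold higher and ERR26, also listed as MT-1, 1.24-fold, while MT-1-4b was 1.78-fold lower. The higher count was 2 without Osoc replicate 1, Ossl replicate 2 or either OsPE array.

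Jasmonate genes differed in both directions. JAZ2, a JAZ repressor, read 2.1 and 0.8 in Ossl, 3424 and 3728 in Osoc and 3853 and 3644 in OsPE. Ossl lay at the floor and the other lines were bright (adjusted p = 1.21e-12). No size is given because the Ossl mean is under the 40th percentile and the offset sets the fitted difference. Of 36 jasmonate genes 9 were higher in Ossl, 2 lower and 25 did not pass, with a median log2 difference of 0.15. CM-LOX1 and CM-LOX2, chloroplast lipoxygenases, the enzyme class that oxidizes the fatty acids from which jasmonate is made, were among the higher ones. CM-LOX2 read 739.7 and 759.2 in Ossl, 91.1 and 126.0 in Osoc and 150.6 and 126.1 in OsPE, a 6.21-fold difference (adjusted p = 4.68e-06). CM-LOX1 read 1902 and 1476, 354.4 and 468.0, and 684.7 and 590.0 in the same order of lines. JAZ11, also a repressor of the JAZ family, was 1.88-fold higher, opposite to JAZ2, and OPR10, of the oxophytodienoate reductase family, was 1.94-fold lower. The count of higher genes stayed between 7 and 9 with any 1 array left out.

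Genes of diterpenoid phytoalexin synthesis were higher in Ossl in 5 of 14 cases, 0 were lower, and the median log2 difference was 0.76. CPS4, the cyclase that opens the momilactone branch, read 183.3 and 187.9 in Ossl, 32.3 and 16.5 in Osoc and 18.5 and 26.1 in OsPE (adjusted p = 0.00235). No fold is given for CPS4 because 1 Osoc array lay under its 40th percentile. CYP99A2, a cytochrome P450 of the same branch, read 531.2 and 440.8 in Ossl, 98.8 and 79.0 in Osoc and 63.8 and 18.8 in OsPE. For both genes the Ossl arrays were the high ones and OsPE lay near or under Osoc. CYP76M7, a P450 of the phytocassane branch, was 3.04-fold higher and CYP701A8, a P450 related to kaurene oxidase, 2.86-fold higher. The others did not pass, among them CPS2, which opens the phytocassane branch (log2 0.19, adjusted p = 0.813), and CYP99A3 (log2 0.44, adjusted p = 0.247). Of 25 cytochrome P450 genes, a list that shares members with this one, 5 were higher and 0 lower. CYP71P1, which hydroxylates tryptamine to serotonin, read 1936 and 1993 in Ossl, 887.6 and 724.3 in Osoc and 365.1 and 286.0 in OsPE (2.42-fold). In the list of tryptophan, tryptamine and polyamine enzymes 4 of 11 genes were higher and 0 lower, and without either Osoc array or either Ossl array that count was 2.

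Genes of phenylpropanoids, lignin and flavonoids were higher in Ossl in 11 of 29 cases and lower in 0, with a median log2 difference of 0.15. Another 11 of the 29 had a fitted difference below 0, down to log2 -1.25, that did not pass. CAD6, a cinnamyl alcohol dehydrogenase of the last step to lignin monomers, read 390.9 and 419.8 in Ossl, 63.2 and 65.1 in Osoc and 199.2 and 187.8 in OsPE (5.25-fold, adjusted p = 1.27e-05). 4CL5, a coenzyme A ligase of the central pathway, read 752.5 and 687.3 in Ossl, 168.8 and 137.1 in Osoc and 206.4 and 179.3 in OsPE, with Ossl 4.37-fold above Osoc. PAL06, a phenylalanine ammonia-lyase, which opens the pathway, was 4.02-fold higher on 1 probe set, with Ossl arrays of 270.8 and 467.1. On its other tested probe set it was 2.45-fold higher. LAC10, a laccase, was 4.04-fold higher. COA20, also listed as ROMT-15 and of the methyltransferases, was 1.8-fold higher. The count was 10 to 12 with any 1 array left out, and 3 without the variance trend.

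Of 36 cellulose synthase, cellulose synthase-like and endoglucanase genes 12 were higher, 0 lower and 24 did not pass (median log2 0.36). CESA7, one of the cellulose synthases of the secondary wall, read 905.7 and 907.8 in Ossl, 225.1 and 217.3 in Osoc and 662.1 and 462.9 in OsPE. Ossl was highest and Osoc lowest without overlap, at 3.89-fold (adjusted p = 7.13e-06). CESA4, which acts in the same complex, was 2.68-fold higher, and GLU2, an endoglucanase, 1.46-fold. The count lay between 7 and 10 with any 1 array left out, 7 being the value without Ossl replicate 2. Of 22 expansin and xyloglucan genes 5 were higher and 0 lower, and 17 did not pass; EXPB4 was higher at 2.18-fold and EXPB3 at 1.55-fold, and expansins loosen the wall during growth. Without either Osoc array that count was 3.

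**Figure D5:**
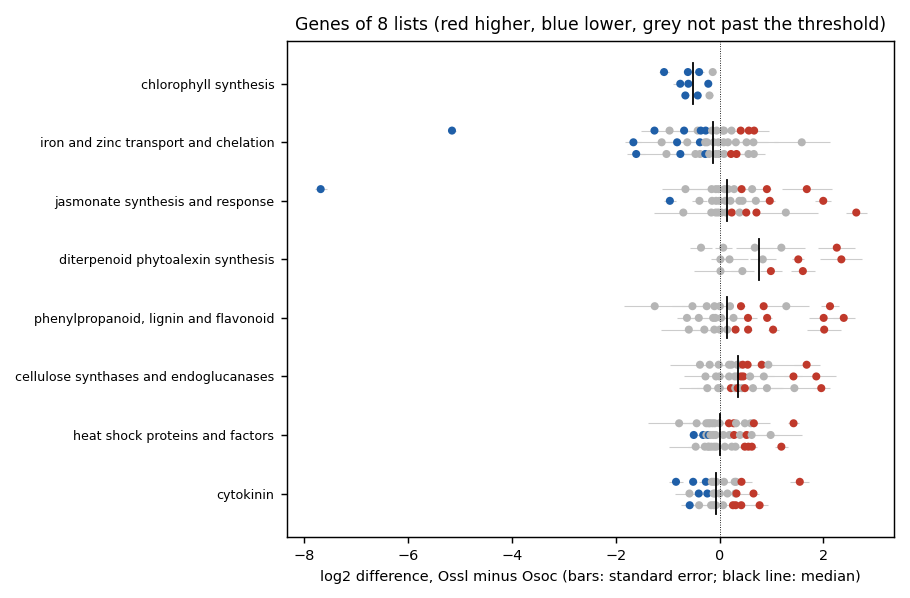
Log2 differences, Ossl minus Osoc, of the genes of 8 lists, each point 1 gene at its brightest probe set with its standard error as a bar; red genes are higher, blue lower and grey did not pass, and the black line is the median of the list. The chlorophyll synthesis genes lie left of 0, most of the diterpenoid and cellulose genes right of it, and JAZ2 and OsVIT1.2 stand apart at the far left of their lists.

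Chitinases and pathogenesis-related proteins, which act against microbes, had 5 of 12 genes higher and 0 lower in Ossl. A further 3 of the 12 had a fitted difference below 0 that did not pass, the largest at log2 -1.32. With the 4 Ossl and Osoc arrays alone, 1 gene of the list counted as lower. Cht2, a chitinase, read 6915 and 5955 in Ossl, 2425 and 2155 in Osoc and 976.4 and 823.4 in OsPE, so that the lines were ordered Ossl, Osoc, OsPE (2.79-fold). PBZ1, a protein of the PR10 family, read 12934 and 12774 in Ossl, 8166 and 8079 in Osoc and 7728 and 7195 in OsPE. NH1, the rice counterpart of NPR1, the coactivator of salicylic acid responses, was 1.78-fold higher, and its OsPE signals of 922.4 and 1017 overlapped those of Ossl, 982.2 and 1051. Of 6 WRKY genes 3 were higher: OsWRKY62 at 3.43-fold, OsWRKY76 at 2.2-fold, both known as repressors of defence in rice, and OsWRKY24 at 1.56-fold. Of 24 genes of immune receptors and signalling 2 were higher and 1 lower, under the shares of all named genes, and 1 was higher without either Osoc array. Of 8 germin-like genes 2 were higher and 0 lower, GER7 at 1.87-fold and GER6 at 2.32-fold. Without Osoc replicate 2 or Ossl replicate 2 the WRKY count was 2 and the germin count 1.

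Abscisic acid, dehydrin and LEA genes had 9 of 23 higher and 0 lower (median log2 0.2), and without Osoc replicate 2 the count was 5. Dhn1, a dehydrin that protects cells in drying, read 1978 and 1978 in Ossl, 1222 and 1201 in Osoc and 1484 and 1435 in OsPE (1.62-fold). OsSAPK7 and OsSAPK3, kinases of abscisic acid and osmotic signalling, were 1.74-fold and 1.46-fold higher. Cytokinin genes split, with 8 of 31 higher and 6 lower. LOGL9, of the family that frees active cytokinin from its nucleotide, read 1020 and 889.8 in Ossl, 296.9 and 336.0 in Osoc and 663.0 and 412.0 in OsPE (2.92-fold), whereas OsRR9, a type-A response regulator, was 1.42-fold lower. The count of higher cytokinin genes was 3 without Osoc replicate 2 and 4 without Ossl replicate 1, and that of lower ones was 2 or 3 without either array of Osoc or of Ossl.

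Of 53 auxin genes 9 were higher and 1 lower, IAA3 and IAA15 at 1.27-fold each and ARF17 at 1.48-fold. The higher count was 4 without Osoc replicate 1 and 5 without Ossl replicate 2, and the lower one, IAA25, did not pass with any 1 array left out. Of 10 gibberellin genes 2 were higher, GA20OX3, an enzyme of gibberellin synthesis, at 2.25-fold and gid1, the receptor, at 1.48-fold, with no change in that count when any 1 array was left out. Of 15 brassinosteroid genes 2 were higher, and that count was 0 without Osoc replicate 2. Of 10 ethylene genes 1 was higher, EIL1, of the family of ethylene-activated transcription factors, at 1.14-fold, and 1 was lower, ACO1, an ethylene-forming oxidase, at 1.23-fold. Both counts were 0 without Osoc replicate 2 and 2 without Ossl replicate 1.

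Transcription factors with the largest differences included LTR1, also listed as MYB4 and known for cold tolerance when overexpressed. It read 1396 and 1443 in Ossl, 453.6 and 450.7 in Osoc and 386.5 and 402.9 in OsPE, Ossl lying above both (3.07-fold, adjusted p = 1.35e-06). A dimmer LTR1 probe set had a log2 difference of 1.31 that did not pass. Of the 10 MYB genes 3 were higher and 0 lower, and that count held with each array left out. DREB1B, which activates cold-responsive genes, went the other way, at 444.2 and 524.8 in Ossl, 1097 and 982.3 in Osoc and 1244 and 1268 in OsPE (2.11-fold lower). CBF3 was 1.87-fold lower, but did not pass in 5 of 6 cases with 1 array left out. NAC068 was 2.11-fold higher and NAC071 1.36-fold lower, each on its brightest probe set, the only ones of 7 NAC genes to pass. Lhs1, also listed as MADS1 and known from flower development, was 2.79-fold higher. Of 58 MADS box and homeobox genes 1 was higher and 2 were lower, under the shares of all named genes. A gene listed as bHLH, the name of a transcription factor family, was 4.48-fold lower, at 181.1 and 189.9 in Ossl, 900.7 and 872.3 in Osoc and 398.5 and 339.6 in OsPE.

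Heat shock proteins and factors had 10 of 43 genes higher and 3 lower, with a median log2 difference of 0, and the counts were 5 or 6 and 1 or 2 without any 1 Ossl or Osoc array. HSF23, a heat shock factor, read 1755 and 1566 in Ossl, 560.1 and 657.3 in Osoc and 833.0 and 792.9 in OsPE (2.69-fold). HSP81-1, a chaperone of the Hsp90 family, and BIP1, the Hsp70 of the endoplasmic reticulum, were 1.58-fold and 1.54-fold higher. CLPB-C, a disaggregating chaperone, was 1.41-fold lower.

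Calcium sensors and their kinases, the longest list, had the most genes past the threshold, 19 higher and 5 lower of 76 (median log2 0.14). That is 31.6% of the list, against 23.1% of all named genes. CML4, a calmodulin-like protein, read 5314 and 4861 in Ossl, 1649 and 1832 in Osoc and 3115 and 2820 in OsPE (2.91-fold, adjusted p = 2.04e-07). CIPK10, a kinase driven by calcineurin B-like sensors, was lower on all 4 of its probe sets, with log2 differences from -0.28 to -1.84. CIPK1 was 1.4-fold lower. Without Osoc replicate 1 the higher count was 9, and without Osoc replicate 2 or Ossl replicate 1 it was 12, while the lower count was 3 without either Osoc array. Of 17 MAP kinase genes 4 were higher and 2 lower, BIMK1 and BIMK2 at 1.54-fold each. Leaving out Osoc replicates 1 and 2 in turn gave 2 and 1 higher genes, and the lower count was 0 without Osoc replicate 2 or either Ossl array. Of 54 PP2C phosphatase genes 8 were higher and 4 lower (22.2% in all), near the shares of all named genes. OsPP2C30 was 1.53-fold higher and DCW11 1.45-fold lower. Both counts were much smaller without either Osoc array, and the lower count also without Ossl replicate 1.

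Among genes of small RNA pathways, DCL2A, a Dicer-like enzyme, was highest in Osoc. Its signals were 861.1 and 820.1 in Ossl, 4060 and 4155 in Osoc and 1046 and 986.2 in OsPE (4.81-fold lower in Ossl, adjusted p = 4.97e-09). Its dimmer probe set also read lower but did not pass (log2 -0.98, adjusted p = 0.0669). AGO18 and AGO2, Argonautes that act in antiviral defence, were 2.76-fold and 1.46-fold higher. Of the 26 genes 2 were higher and 3 lower, and without either Osoc array or Ossl replicate 2 the lower count was 1. Of 17 chromatin genes 4 were higher and 1 lower, H2B.7, a histone, at 1.77-fold and JMJ706, a histone demethylase, at 1.48-fold. Without Osoc replicate 2 or Ossl replicate 1 the higher count was 2.

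AMT3-2, an ammonium transporter, read 963.5 and 882.4 in Ossl, 339.0 and 218.0 in Osoc and 337.4 and 354.2 in OsPE, Ossl being the high line (3.25-fold). GDH2, a glutamate dehydrogenase, was 1.73-fold higher and GLN1-2, a glutamine synthetase, 1.42-fold lower. In all 4 of 19 nitrogen genes were higher and 1 lower, with 2 higher without Osoc replicate 2 or Ossl replicate 2. HAK1 and HAK16, potassium transporters, were 2.02-fold and 1.68-fold higher, among the 4 higher of 24 potassium and sodium genes, a count that was 2 without Osoc replicate 2. The phosphate transporter gene listed as PHT1-8 was 1.93-fold higher and the one listed as PHT1-1 1.61-fold, while OsSPX2, a phosphate sensor, was 1.96-fold lower. Of 19 phosphate genes 3 were higher and 1 lower, and the lower count was 0 without Osoc replicate 2. MST3, a monosaccharide transporter, read 5823 and 5889 in Ossl, 2786 and 3179 in Osoc and 3579 and 3415 in OsPE (1.96-fold). OsSWEET15, a sugar exporter, read 5.1 and 2.0 in Ossl, 189.6 and 194.0 in Osoc and 32.8 and 20.6 in OsPE, so it was near the floor in Ossl and dim in OsPE. Of 17 sugar transport genes 3 were higher and 2 lower, with 1 higher without Osoc replicate 2 or Ossl replicate 1, and 1 lower with any 1 array left out. Of 24 aquaporin and silicon transporter genes 3 were higher, the one listed as PIP1-3 at 1.56-fold; the count was 6 without Ossl replicate 1 and 1 without Ossl replicate 2.

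The sucrose synthase genes OsSUS1 and OsSUS2 went in opposite directions. OsSUS1 read 1093 and 1011 in Ossl, 488.8 and 382.7 in Osoc and 464.0 and 534.2 in OsPE (2.38-fold higher), and OsSUS2 was 1.27-fold lower. Of 32 genes of sucrose, starch and trehalose 2 were higher and 3 lower. Redox enzymes also split, with 9 of 55 higher and 10 lower. GRXC1, a glutaredoxin, read 6697 and 6956 in Ossl, 13199 and 13345 in Osoc and 6993 and 7320 in OsPE, so that Osoc stood apart (1.94-fold lower in Ossl, adjusted p = 4e-07). CAT-B, a catalase, was 1.33-fold higher. Without Osoc replicate 1 the redox counts were 3 and 3, without Osoc replicate 2 they were 4 and 4, and without Ossl replicate 2 the higher count was 5. Of 6 glutathione S-transferase genes 3 were higher, with 0 without Osoc replicate 1 or Ossl replicate 2 and 1 without Osoc replicate 2. SAM2 and SAM1, which make the methyl donor S-adenosylmethionine, were 1.78-fold and 1.35-fold higher, and AdoMetDC, which draws on it for polyamines, was 1.32-fold lower.

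Cytosolic ribosomal protein genes were lower in 8 of 21 cases and higher in 0, by small amounts, with a median log2 difference of -0.12. RPL11, RPL39C and rps20 were 1.21-fold, 1.21-fold and 1.2-fold lower. That count was 2 without Osoc replicate 1, 0 without Osoc replicate 2 and 4 without either OsPE array or Ossl replicate 1. QM1, a name of ribosomal protein L10, was 4.4-fold lower on 1 of its probe sets, at 1606 and 1442 in Ossl, 6728 and 6778 in Osoc and 6192 and 5935 in OsPE. Its brightest probe set read 20488 and 20147 in Ossl and 19769 and 18866 in Osoc and did not pass (adjusted p = 0.471), so the gene is uncertain. OsTLP3, a tubby-like protein gene, likewise was 2.68-fold lower on 1 probe set and did not pass on its brightest (adjusted p = 0.66).

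Among the remaining named genes, KIN14K, a kinesin motor, was lower on all 3 probe sets assigned to it. The largest difference was at 39.6 and 42.6 in Ossl against 170.9 and 135.4 in Osoc, a call that was lost without Osoc replicate 1. Another of the 3 shares its identifier stem with the probe set of OsHpt5, a gene of the cytokinin list that was also lower (log2 -0.84). Whether that probe set reads KIN14K alone was not tested. VLN1, a villin that bundles actin, read 59.3 and 65.8 in Ossl and 4.7 and 3.3 in Osoc. Its call was lost without either Osoc array or either Ossl array, where the adjusted p reached 0.143. Of 69 cell cycle genes 2 were higher and 3 lower, under the shares of all named genes. Light receptor, clock and flowering genes had 4 of 16 lower and 0 higher, DTH7, also listed as PRR37, at 1.19-fold and Osnph1b, the phototropin listed as PHOT2, at 1.17-fold. The count was 0 without Osoc replicate 1, 1 without Osoc replicate 2 and 2 without Ossl replicate 1.

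Placed in the gene order of the reference annotation (ASM3414082v1, Oryza sativa Japonica Group), 311 of 16460 genes were at least 2-fold higher in Ossl (1.89%), and 38 of these (12.2%) had a neighbouring measured gene that was too. They formed 19 runs, and the longest held 2 genes. CM-LOX1 and CM-LOX2 were 1 such run, OsWRKY76 and OsWRKY62 were another, and CYP76M7 with LOC4341448 a further one. Neighbours of related sequence can share probes, and the array does not separate that from joint expression. Of 65 genes at least 2-fold lower (0.395%) only AARE1 and AARE2 were neighbours, with AARE2 lower on both of its probe sets (2.59-fold on the brighter). AARE1 entered this run through its brightest probe set, while another of its probe sets was higher in Ossl. No run of genes at least 2-fold apart in the same direction was longer than 2 measured genes. Stretches with smaller differences were not examined. The number of runs was 20 in all, and 11 without Ossl replicate 1.

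The array also carries 64 reporter and marker probe sets, which can read foreign DNA such as a selection gene, and 26 were tested. A single one passed, at 29544 and 32871 in Ossl, 22394 and 22739 in Osoc and 18108 and 16595 in OsPE (log2 0.47, adjusted p = 4.36e-04). It was bright on all 6 arrays, in the order Ossl, Osoc, OsPE without overlap.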

How the data were processed

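Total RNA of 6 seedling samples, 2 per line, was labelled as biotin cRNA and put on the Affymetrix Rice Genome array, per the labels. The deposited values are linear signal intensities, 1 per probe set, made with GCOS 1.2 per the submitters' processing notes. The sources used here do not name the summarization algorithm. The mean of each array after trimming 2% at either end was 500, so the arrays had been scaled by the authors and were not scaled again. The number of arrays limits the precision.

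Values were analysed as log2(signal + 16), which understates folds of dim probe sets. Probe sets above the 40th percentile of their array on at least 2 of 6 arrays were tested in limma 3.58.1 (R 4.3.3), with a mean per line, all 6 arrays sharing 1 variance estimate, a variance trend, 3 residual degrees of freedom and a median of 8.98 prior ones. Ossl minus Osoc was tested two-sided with Benjamini-Hochberg adjustment over all tested probe sets, and an adjusted p below 0.05 counted as past. A ± after a log2 difference is its standard error. Tables were handled in Python 3.11.15 with pandas 2.3.3 and matplotlib 3.10.9, and the fit was tested on simulated data.

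Genes were named from GEO's platform annotation, updated by gene number: 22436 probe sets had 1 symbol, 95 several and 34850 none. Named genes with a tested probe set numbered 2300 of 2457. The 50 lists matched symbols and aliases, with chance matches of letters taken out once the tables were seen, and a gene was represented by its brightest probe set. Genes are named in the text by rule: the 12 largest differences in each direction among genes with a name, past the threshold and without overlap; up to 3 per direction and list; the largest differences among the other probe sets; and genes whose probe sets oppose each other. List members outside that rule were chosen after their values were seen. The comparison, members and lists were chosen with earlier results of these data known.

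Alternatives were other offsets, quantile normalization, median centring, other filters, no variance trend, robust weights, the replicate number as a block, the 4 arrays alone, the mean over a gene's probe sets, and each array left out.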

Additional observations from a re-analysis of the deposited data

How the results depend on the processing

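None of the 193 named probe sets changed sign under any alternative fitted to single probe sets, which leaves out the mean over a gene's probe sets. They had been chosen because they passed on these arrays, which favours a stable sign. The surplus of higher over lower calls (52.9% higher) turned under median centring (49.2%, with 1700 higher and 1752 lower). The numbers of probe sets that differed, were higher and were lower (4441, 2351 and 2090) were 402, 245 and 157 without the variance trend, where 7380 had an unadjusted p below 0.05, and 2367 to 3790, 1355 to 2027 and 1012 to 1763 with any 1 array left out. Those at least 2-fold apart, higher and lower (833, 556 and 277) were 536, 367 and 169 with an offset of 64, and 381, 233 and 148 without the trend. Leaving out any 1 array gave 685 to 775, 409 to 516 and 197 to 336. List members that differed (297) were 26 without the trend and 174 to 254 with any 1 array left out. Genes with opposed probe sets (9) were 5 without a filter, 14 with the 60th percentile filter, 1 without the trend and 2 to 7 with any 1 array left out. Runs of neighbouring genes (20) were 11 with an offset of 64, 12 without a filter, 5 without the trend and 11 to 20 with any 1 array left out. Of the 24 probe sets named by size 18 passed without the trend, and of all 193 named probe sets 34 did. With each array left out in turn, most of the 24 still passed, while many of the 193 did not. The replicate numbers of the arrays did not pair them: deviations of same-numbered Ossl and Osoc arrays correlated at 0.014, and with the number as a block 4423 probe sets differed. Dim probe sets, with a median standard error of 0.573 under a signal of 64, could show large differences alone. The cause of the changes was not tested.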
